A study of Mus musculus with 18 samples.

Results

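Transcript levels of 6 cathepsins (Ctsb, Ctsc, Ctsd, Ctsh, Ctss and Ctsz) and 3 membrane proteins of lysosomes (Cd63, Lamp1 and Lamp2) were followed in spleen neutrophils of lupus-prone mice at 3 ages. These genes were chosen by symbol, and all 9 had a row among the 17941 symbols of the count table. The cells came from untreated females of NZBWF1/J, hybrid mice in which a disease like lupus arises spontaneously, at 14, 20 and 26 weeks of age, which the submitters describe as stages of the disease. There were 6 libraries at each age, titled biological replicates, and the labels do not say whether a library holds cells of 1 mouse or of several. The sort took DAPI-negative singlets that carried Ly6B, CD11b and Ly6G and had an intermediate level of Ly6C. All 3 ages share strain, sex and sort, and no strain without disease was analysed here, so age and disease stage cannot be told apart.

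Library totals ran from 5546624 to 17256379 counts, and 10104 genes had enough counts to be tested. The labelled cell type was checked against 12 neutrophil markers, whose summed level ran from 48334 CPM (counts scaled to a common library size with TMM factors) in the lowest library to 292099 CPM in the highest. All 12 were detected at each age. Replicate 3 of 20 weeks stood apart, with counts in 8119 genes and a median correlation of 0.756 with the other libraries of its age. Values below are CPM. Fold changes are log2 values ± SE from an edgeR quasi-likelihood fit of all 18 libraries, and "called" means a Benjamini-Hochberg adjusted p under 0.05 over all 10104 genes.

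Lysosomes are acidic organelles in which hydrolases break down material taken up from outside or delivered by autophagy. Most cathepsins are cysteine proteases of that compartment, and cathepsin D is an aspartic protease. Cathepsin C, a dipeptidyl peptidase, removes the dipeptide that keeps the serine proteases of neutrophil granules inactive. Lamp1 and Lamp2 are heavily glycosylated proteins that make up much of the lysosomal membrane, and CD63 is a tetraspanin of late endosomes and lysosomes that marks azurophil granules in human neutrophils. Many lysosomal genes are targets of the transcription factor TFEB and its relatives, which bind a motif with the E-box core CACGTG.

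The promoters of Lamp1, Ctsd and Ctss are shown because Lamp1 and Ctsd carry that core and because Ctss had the largest fitted change of the 9 genes between 20 and 14 weeks. Each is the 250 bases before the RefSeq start site (GRCm38.p6), read 5′ to 3′ on the strand of the gene, with CACGTG in capitals. The motif is its own reverse complement, so both strands were searched together.
Lamp1, chr8:13158911-13159160, plus strand: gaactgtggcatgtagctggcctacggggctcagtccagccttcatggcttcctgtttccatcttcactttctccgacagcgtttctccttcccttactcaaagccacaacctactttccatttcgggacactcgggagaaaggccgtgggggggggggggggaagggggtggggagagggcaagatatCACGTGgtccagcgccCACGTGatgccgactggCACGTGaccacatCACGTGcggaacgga
Ctsd, chr7:142387828-142388077, minus strand: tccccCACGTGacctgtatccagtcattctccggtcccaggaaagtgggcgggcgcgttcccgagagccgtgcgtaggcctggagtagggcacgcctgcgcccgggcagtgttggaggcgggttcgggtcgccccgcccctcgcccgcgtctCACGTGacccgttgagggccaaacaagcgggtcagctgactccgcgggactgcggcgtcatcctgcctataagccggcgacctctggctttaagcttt
Ctss, chr3:95526536-95526785, plus strand: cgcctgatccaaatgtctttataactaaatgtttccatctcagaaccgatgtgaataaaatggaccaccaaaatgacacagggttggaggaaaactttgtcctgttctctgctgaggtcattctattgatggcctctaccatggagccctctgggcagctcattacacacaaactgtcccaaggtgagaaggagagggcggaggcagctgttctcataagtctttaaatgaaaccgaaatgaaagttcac

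The Lamp1 window held 4 copies of CACGTG, starting 61, 45, 28 and 15 bases before the start site. The Ctsd window held 2, starting 245 and 98 bases before it, and the nearer one lay within the longer motif TCACGTGA. Of 32851 RefSeq promoter windows of this length, 6.02% held at least 1 copy, 0.429% at least 2 and 7 windows (0.0213%) at least 4, while TCACGTGA occurred in 0.785%. Promoters of 7 of the 9 genes were in the RefSeq table, and these letters were not in the windows of Cd63, Ctsc, Ctss, Ctsz and Lamp2. A match of letters is a description of the window and not evidence of a bound site. The GENCODE M21 model of Ctsd begins further upstream than the RefSeq start, so part of the window lies inside that model. The whole Cd63 window (128909095 to 128909344 on chromosome 10) lies inside the GENCODE model of Cd63, which begins at 128900989. The bases before that GENCODE start were not searched.

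Ctsd was by far the most abundant of the genes at every age. Counted per kb of exon (union of all annotated exons), it averaged 969 ± 281, 1502 ± 278 and 808 ± 298 CPM per kb at 14, 20 and 26 weeks (SD, n = 6 each). Its share of the summed CPM of the 9 genes averaged 52.4 ± 7.81%, 60.3 ± 3.41% and 44.6 ± 7.47% at the 3 ages. Cd63, Lamp1, Ctsz, Ctsb, Ctsh and Lamp2 lay between 62.2 and 103 CPM per kb at 14 weeks, and among Ctsb, Ctsh and Lamp2 the means differed by less than 1 SD. Ctss (15.8 ± 8.82 CPM per kb) and Ctsc (2.57 ± 0.359 CPM per kb) were lowest at that age. At 26 weeks Cd63 ranked after Ctsd with 184 ± 55.8 CPM per kb, and Ctsc was last with 1.63 ± 1.05 CPM per kb.

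**Figure D1:**
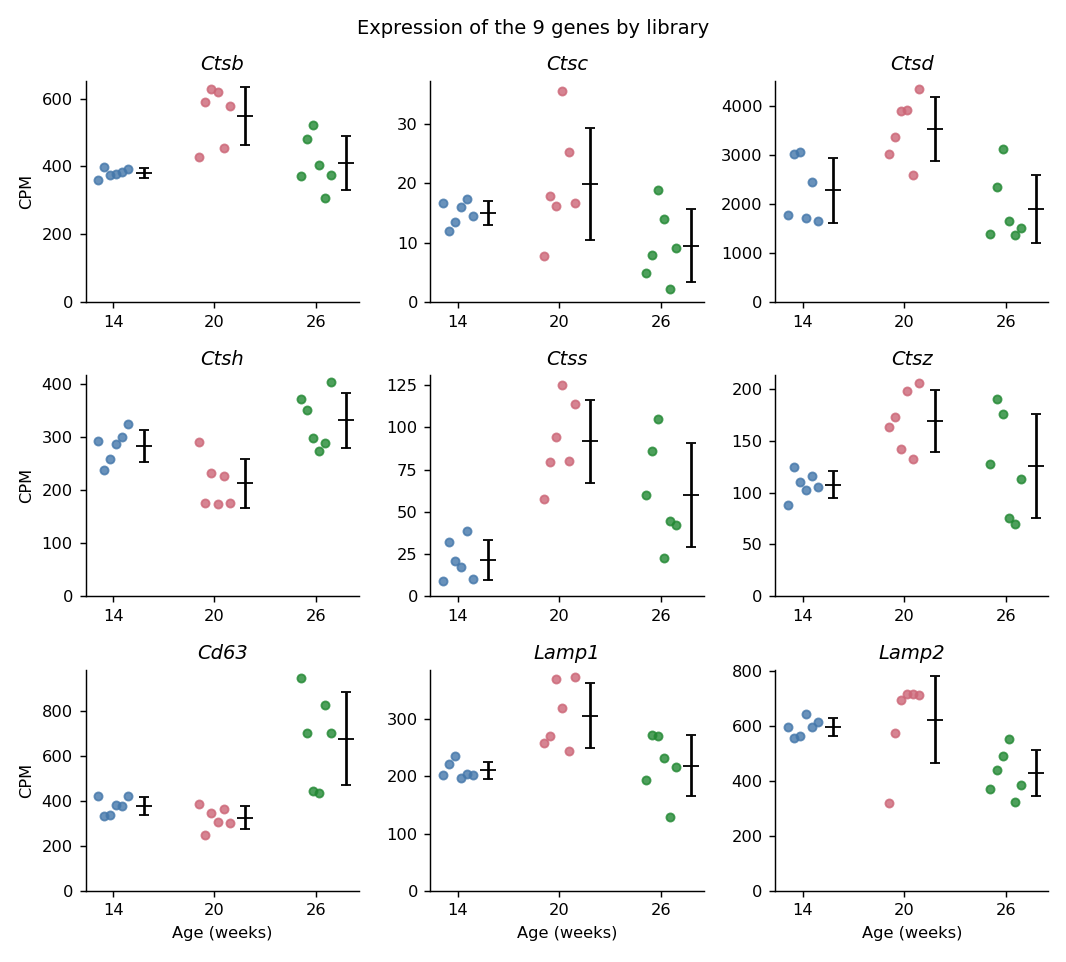
CPM of the 9 genes (vertical axes, each starting at 0) in each of 18 libraries at 14, 20 and 26 weeks of age (horizontal axes). Points are libraries and black bars are mean ± SD of 6. Ctss, Ctsb, Ctsz and Lamp1 were higher in all 6 libraries of 20 weeks than in any of 14 weeks (2.97% of all genes tested), and Cd63 was higher in all 6 of 26 weeks than in any library of 20 weeks (3.69%) or 14 weeks (2.90%).

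Between 20 and 14 weeks, 3 of the 9 genes (Ctss, Ctsb and Lamp1) were called higher and 0 lower. Over all genes tested 10.2% were called in that comparison, 4.93% higher and 5.27% lower. The called share depends on abundance: among 1886 abundant genes, those whose log2 CPM averaged 6 or more, 30.2% were called. Between 26 and 20 weeks 2 of the 9 (Cd63 and Ctsh) were called higher and 4 (Ctsb, Ctsd, Lamp1 and Lamp2) lower. Of all genes tested 16.0% were called there, 8.03% higher and 7.98% lower, and 42.4% of the abundant ones. Between 26 and 14 weeks 2 of the 9 (Ctss and Cd63) were called higher and 0 lower. Of all genes tested 11.0% were called there, 5.45% higher and 5.54% lower, and 31.3% of the abundant ones. The test of any change over the 3 ages called 7 of the 9, all but Ctsc and Ctsz, against 23.0% of all genes and 62.6% of the abundant ones. Lamp2 (adjusted p = 0.0454) was not among the called genes with RLE or upper quartile scaling, no filter, the replicate block, the length correction, or markers of other cells left out. Ctsz was among them with RLE scaling, DESeq2, the stricter filter and the length correction, Ctsc was with limma-voom, and Lamp1 was not with no filter. The 3 comparisons share libraries and are not independent of each other. In bulk libraries a change in the cells that make up the sort and a change in RNA per cell cannot be told apart.

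**Figure D2:**
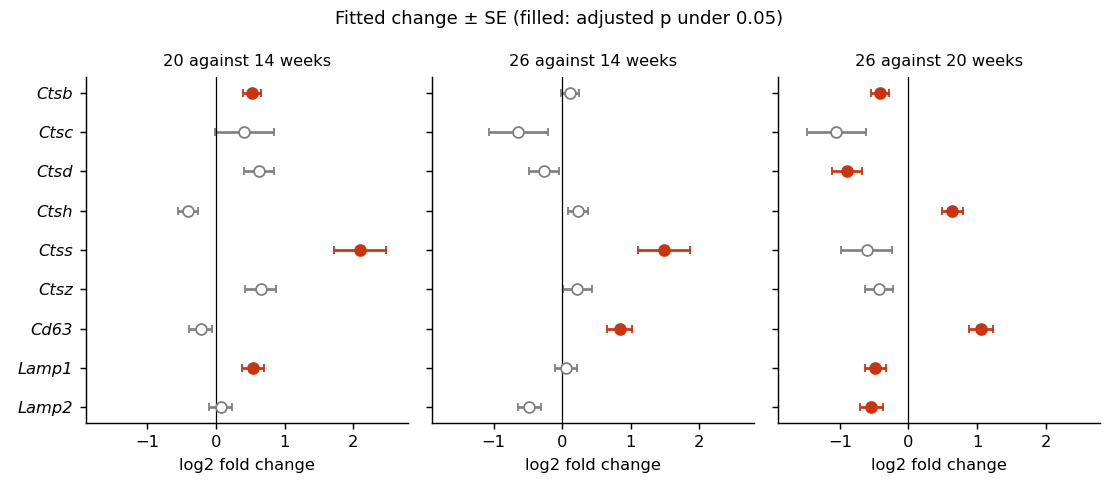
Fitted log2 fold change ± SE (horizontal axes) of each gene (rows) in 20 against 14, 26 against 14 and 26 against 20 weeks. Filled points had an adjusted p under 0.05. Ctss (2.10 ± 0.38) was farthest from 0 in the first comparison and Cd63 (1.06 ± 0.18) in the third among the called genes.

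Ctss encodes cathepsin S, a cysteine protease that stays active at neutral pH and trims the invariant chain of MHC class II in antigen-presenting cells. Its lowest, median and highest levels were 57.4, 87.2 and 125 CPM at 20 weeks, against 9.36, 19 and 38.8 CPM at 14 weeks. The 2 ages did not overlap, which was so for 6.90% of all genes tested, 2.97% with 20 weeks above and 3.93% with 20 weeks below. The fitted change was 2.10 ± 0.38 (edgeR adjusted p = 0.0019), and it was called in each of the 18 fits that left out 1 library. At 26 weeks the lowest, median and highest values were 22.5, 52.4 and 105 CPM, still above the 14 week libraries by 1.49 ± 0.38 (edgeR adjusted p = 0.0143). There 5 of 6 libraries exceeded every library of 14 weeks, and only replicate 4, at 22.5 CPM, fell within their range. A correction of each library for gene length ended that call (1.02 ± 0.37, adjusted p = 0.0992). The change between 26 and 20 weeks, -0.61 ± 0.37, was not called (edgeR adjusted p = 0.292). Ctss spans 95526786 to 95556403 on chromosome 3 (GRCm38, GENCODE M21).

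Markers of other cells moved beside Ctss. The summed level of monocyte and macrophage markers ran from 360 to 807 CPM at 20 weeks, against 105 to 363 CPM at 14 weeks (exact permutation test, two-sided, p = 0.00433, adjusted over 33 tests 0.013). At 26 weeks it ran from 103 to 300 CPM, below all 20 week libraries and not called against 14 weeks (exact permutation p = 0.264, adjusted 0.349). Of 17 listed markers 10 had a row, and 2 had enough counts to be tested: Csf1r, the receptor of the macrophage growth factor, and Adgre1, which encodes F4/80. Both were called higher at 20 than at 14 weeks (1.31 and 1.72 in log2). Among the others, C1qa and C1qb, subunits of complement C1q, had counts in 1 of 18 libraries each, Ccr2 in 2, and Mertk had 0 in all 6 of 20 weeks. The plasma cell sum ran from 349 to 2075 CPM at 20 weeks, against 129 to 186 CPM at 14 weeks, and the B cell sum from 183 to 1853 CPM, against 47.4 to 180 CPM (exact permutation p = 0.00216 each, the smallest possible, adjusted 0.00893). At 14 weeks the plasma cell sum was nearly all Xbp1 (154 CPM, and 321 CPM at 20 weeks). Jchain (368 CPM at 20 weeks and 0.195 CPM at 14 weeks) and Igkc (271 and 2.8 CPM) were the other tested markers. All 3 were called higher at 20 weeks. Mzb1, Prdm1, Tnfrsf17, Sdc1 and Derl3 had too few counts to be tested and averaged 6 CPM or less at each age. The B cell sum was nearly all Ighm (846 CPM at 20 weeks and 98.4 CPM at 14 weeks). Ighm was the only one called of 3 tested B cell markers (edgeR adjusted p = 0.55 for Cd79a and 0.51 for Cd79b). Sums of eosinophil and dendritic cell markers were higher too, up to 78.3 and 11 CPM at 20 weeks, against 24.6 and 1.3 CPM at 14 weeks at most (adjusted exact permutation p = 0.00893 and 0.019). Of 3 tested eosinophil markers only Ccr3 was called (22.4 and 3.45 CPM at those ages). Ear2 averaged lower at 20 weeks (1.79 and 4.87 CPM), and Prg2, Ear6 and Il5ra had 0 in all 6 libraries of that age. The dendritic cell sum was mostly Batf3 (3.33 and 0.456 CPM), which was not called (edgeR adjusted p = 0.0908). The sum of T cell markers was lower, at 50 to 102 CPM, against 117 to 150 CPM (adjusted exact permutation p = 0.00893). It was nearly all Cd3d (70.4 and 129 CPM), and none of 4 tested T cell markers was called by edgeR (Cd3d adjusted p = 0.0547). The neutrophil sum was 81309 ± 27225 CPM at 20 weeks and 167576 ± 24321 CPM at 14 weeks (SD, n = 6 each; exact permutation p = 0.00216, adjusted 0.00893). Its largest parts were Ngp (30051 and 54833 CPM at those ages) and Ltf (18253 and 50645 CPM). Of its 12 markers 9 were called lower at 20 weeks. Csf3r was called higher (4689 and 2027 CPM, edgeR adjusted p = 0.012), and Cxcr2 and Camp were not called (adjusted p = 0.795 and 0.25). The basophil and mast cell sum averaged 2135 ± 459 CPM at 20 weeks and 2383 ± 342 CPM at 14 weeks (adjusted exact permutation p = 0.37), nearly all of it Hdc (2123 and 2383 CPM). The other 6 markers of that list had too few counts to be tested, and their averages were higher at 20 weeks, such as Fcer1a with 4.28 CPM, against 0.128 CPM at 14 weeks, and Cpa3 with 2.75 CPM, against 0.342 CPM. Those of NK cell, erythroid and platelet markers did not exceed 6.82 CPM in any library of these 2 ages. Their part in the changes of the cathepsins was not tested.

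**Figure D3:**
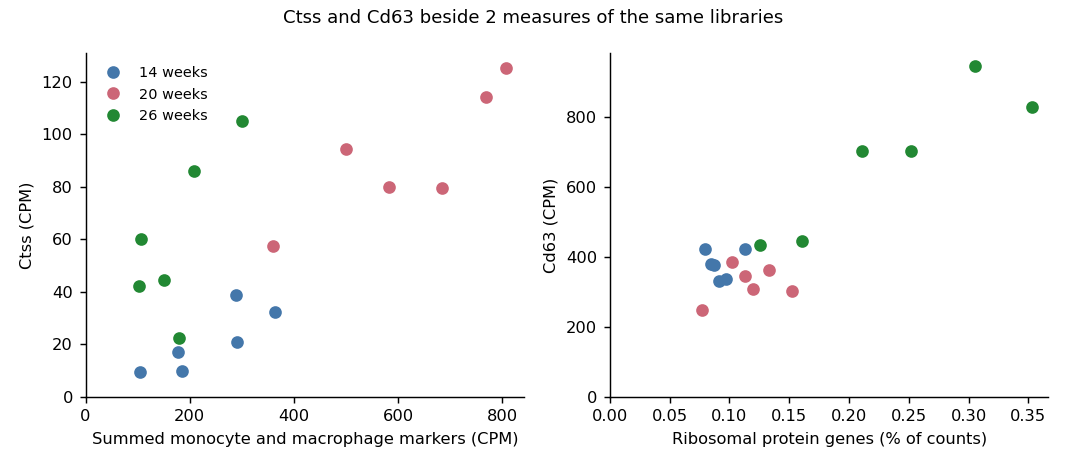
Left, Ctss (CPM) against the summed monocyte and macrophage markers (CPM); right, Cd63 (CPM) against the percentage of counts in ribosomal protein genes. Each point is a library, coloured by age. Ctss reached 105 CPM and the marker sum 300 CPM in the 26 week libraries, and the 4 libraries with Cd63 at 703 CPM or more were 26 week libraries with 0.211 to 0.353% of counts in ribosomal protein genes.

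Ctsb encodes cathepsin B, a cysteine protease that also trims carboxyl-terminal dipeptides. It had 428, 584 and 627 CPM as lowest, median and highest values at 20 weeks, against 360, 380 and 398 CPM at 14 weeks. These ages did not overlap, and the change of 0.53 ± 0.13 was called (edgeR adjusted p = 0.0146), also in each of the 18 fits without 1 library. At 26 weeks Ctsb ran from 307 through a median of 389 to 522 CPM. All 6 of these libraries lay below the 20 week median and 4 below the lowest 20 week library. The change between 26 and 20 weeks was -0.42 ± 0.13 (edgeR adjusted p = 0.0352). That call was lost without replicate 2, 3, 4 or 6 of 20 weeks or replicate 1, 5 or 6 of 26 weeks (-0.34 to -0.41, adjusted p = 0.0617 to 0.08). It was also lost with upper quartile scaling, limma-voom, no filter, only 2 ages or the length correction (-0.26 to -0.42, adjusted p = 0.0516 to 0.193). Between 26 and 14 weeks Ctsb changed by 0.11 ± 0.13, with the older libraries spread on both sides of the younger ones (edgeR adjusted p = 0.727). It spans 63122462 to 63145923 on chromosome 14.

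Lamp1, a main glycoprotein of the lysosomal membrane, followed a similar course. Its lowest, median and highest levels were 244, 295 and 374 CPM at 20 weeks, against 197, 203 and 235 CPM at 14 weeks, without overlap. The change was 0.54 ± 0.16 (edgeR adjusted p = 0.0389). It was no longer called in 8 of the 18 fits without 1 library (without replicate 1, 2, 4, 5 or 6 of 14 weeks, or replicate 3, 4 or 6 of 20 weeks, 0.47 to 0.56, adjusted p = 0.0535 to 0.0985), nor with no filter (adjusted p = 0.0619) or the length correction (0.44 ± 0.15, adjusted p = 0.0813). At 26 weeks it ran from 129 through 224 to 272 CPM, and -0.48 ± 0.16 against 20 weeks was at the edge of the threshold (edgeR adjusted p = 0.0482). That call held in 4 of the 18 fits without 1 library, those without replicate 1 or 5 of 20 weeks or replicate 2 or 3 of 26 weeks. In the other 14 fits the adjusted p ran from 0.0526 to 0.106. It was also lost with upper quartile scaling, limma-voom, no filter, only 2 ages, or markers of other cells left out (adjusted p = 0.0503 to 0.12). Lamp1 spans 13159161 to 13175338 on chromosome 8.

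Ctsd, whose aspartic protease cleaves proteins in acid compartments, had 2604, 3639 and 4359 CPM as lowest, median and highest values at 20 weeks, against 1650, 2111 and 3059 CPM at 14 weeks. The ages overlapped, since replicates 2 and 3 of 14 weeks had 3033 and 3059 CPM. With 0.63 ± 0.22 Ctsd was not called (edgeR adjusted p = 0.0745). It was called with RLE or upper quartile scaling (adjusted p = 0.0445 and 0.0455), with DESeq2 (0.0155), with the stricter filter on low counts (0.0244), with only the 2 ages fitted (0.0434), with a replicate block (0.0284) and without replicate 3 of 26 weeks (0.0333). At 26 weeks the values were 1369, 1582 and 3121 CPM, and 5 of 6 libraries lay below every 20 week library. The fitted change between 26 and 20 weeks, -0.89 ± 0.22, was called (edgeR adjusted p = 0.00871) and remained so in each fit without 1 library. Ctsd lies at 142375911 to 142388038 on chromosome 7.

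Ctsz encodes cathepsin Z, also called X, a carboxypeptidase. It had 132, 168 and 206 CPM as lowest, median and highest values at 20 weeks, against 88.2, 107 and 125 CPM at 14 weeks, again without overlap. In all, 4 of the 9 genes (Ctsb, Ctss, Ctsz and Lamp1) lay entirely above their 14 week range at 20 weeks, as did 2.97% of all genes tested. Shares without overlap, here and for the other genes, were not computed for abundant genes alone and may depend on abundance as the called shares do. The change of Ctsz was 0.65 ± 0.22 and its adjusted p of 0.0599 by edgeR missed the threshold. RLE or upper quartile scaling (0.0367 and 0.0388), DESeq2 (0.0131), the stricter filter (0.0204) and a fit of only the 2 ages (0.00857) brought it under 0.05, as did leaving out replicate 2, 3, 4 or 5 of 26 weeks (0.0303 to 0.0439). At 26 weeks Ctsz was widely spread, from 69.6 through 121 to 190 CPM, and differed from neither younger age by that test (adjusted p = 0.618 against 14 weeks and 0.194 against 20 weeks). With the length correction the change between 26 and 20 weeks was called (-0.74 ± 0.22, adjusted p = 0.0255). Ctsz spans 174427493 to 174439039 on chromosome 2.

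Ctsh, which encodes an aminopeptidase of the cathepsin family, moved the other way. At 26 weeks its lowest, median and highest levels were 273, 325 and 404 CPM, against 173, 202 and 291 CPM at 20 weeks. All 6 of the older libraries lay above the 20 week median and 4 above the highest 20 week library, replicate 1. The change was 0.64 ± 0.15 (edgeR adjusted p = 0.00501) and was called in each fit without 1 library. The change between 20 and 14 weeks, -0.41 ± 0.15, was not called (edgeR adjusted p = 0.0776). Levels at 14 weeks ran from 238 through 289 to 324 CPM, above 5 of the 6 libraries of 20 weeks. Without replicate 1 of 20 weeks the change was -0.53 (adjusted p = 0.0144), and limma-voom also called it (-0.46 ± 0.15, adjusted p = 0.0388). Ctsh spans 90054152 to 90076089 on chromosome 9.

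Ctsc was the least expressed of the 9 genes and was not called in any pair of ages by edgeR. It ran from 2.1 through a median of 8.53 to 18.9 CPM at 26 weeks, against 7.72, 17.2 and 35.5 CPM at 20 weeks. The fitted change of -1.05 ± 0.43 had an adjusted p of 0.104 by edgeR. DESeq2 called it (-1.06 ± 0.42, adjusted p = 0.0495), as did edgeR without replicate 3 of 26 weeks (-1.36, adjusted p = 0.0373). At 14 weeks its libraries lay close together, from 11.9 to 17.3 CPM. The lowest raw count was 10, in replicate 5 of 26 weeks, which was also the library with the fewest counts. Of a list of 6 genes of granule serine proteases, the class that cathepsin C activates, only Prss57 had enough counts to be tested. It averaged 14.6 ± 3.71, 15.5 ± 5.97 and 23.1 ± 5.9 CPM at 14, 20 and 26 weeks and was not called between any ages by edgeR (adjusted p = 0.198 to 0.919). The others had few counts. Elane (neutrophil elastase) averaged 0, 0 and 0.227 CPM at 14, 20 and 26 weeks, and Prtn3 (proteinase 3) 0.208, 1.46 and 0.168 CPM. Ctsg, which encodes cathepsin G, averaged 0, 0.296 and 0.336 CPM. Ctsc spans 88278085 to 88310888 on chromosome 7.

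Lamp2, which in 1 of its splice forms takes proteins into lysosomes by chaperone-mediated autophagy, was lower at 26 weeks. Its lowest, median and highest levels were 324, 412 and 550 CPM at 26 weeks, against 320, 702 and 717 CPM at 20 weeks. The 20 week minimum came from replicate 1, and the other 5 libraries of that age had at least 575 CPM, above every 26 week library. The change was -0.54 ± 0.17 (edgeR adjusted p = 0.0343). It was no longer called without replicate 3, 4, 5 or 6 of 20 weeks or replicate 1, 2, 5 or 6 of 26 weeks (-0.47 to -0.53, adjusted p = 0.0585 to 0.0868), with no filter (0.0681) or with only 2 ages fitted (0.0979). At 14 weeks Lamp2 ran from 556 through 596 to 641 CPM, so all 6 libraries of 26 weeks lay below the 14 week range, as did 3.86% of all genes tested (6.76% did not overlap in either direction). That change, -0.48 ± 0.17, was not called by edgeR (adjusted p = 0.0777). It was called by limma-voom (-0.51 ± 0.13, adjusted p = 0.00809), with only the 2 ages fitted (-0.46 ± 0.13, adjusted p = 0.0235) and without replicate 1 of 20 weeks or replicate 4 of 26 weeks (0.0157 to 0.0312). The counts are per gene and do not separate splice forms. Lamp2 spans 38401357 to 38456454 on chromosome X.

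Cd63 stood apart from the other membrane genes. Its lowest, median and highest levels were 434, 703 and 948 CPM at 26 weeks, against 247, 327 and 387 CPM at 20 weeks and 331, 379 and 424 CPM at 14 weeks. The oldest group overlapped with neither younger group, which was so, with 26 weeks above, for 3.69% of all genes tested against 20 weeks (5.96% in either direction) and 2.90% against 14 weeks. The change was 1.06 ± 0.18 against 20 weeks (edgeR adjusted p = 0.000664) and 0.84 ± 0.18 against 14 weeks (edgeR adjusted p = 0.00542), and both were called in each fit without 1 library. Between 20 and 14 weeks Cd63 was not called (-0.22 ± 0.17, edgeR adjusted p = 0.514). The share of counts in 85 ribosomal protein genes also differed between the libraries, at 0.126 to 0.353% at 26 weeks, against 0.0774 to 0.152% at 20 weeks and 0.0793 to 0.113% at 14 weeks. Replicates 3 and 4 of 26 weeks, with the lowest ribosomal shares of that age (0.161 and 0.126%), had 445 and 434 CPM of Cd63. These were the lowest at that age, and the highest younger library had 424 CPM of Cd63. The ribosomal share reached 0.152% in the younger libraries, below that of replicate 3. With the length correction Cd63 changed by 1.17 ± 0.19 and 0.88 ± 0.19 in the 2 comparisons (adjusted p = 0.000465 and 0.00818). The summed neutrophil markers averaged 230578 ± 55184 CPM at 26 weeks and 81309 ± 27225 CPM at 20 weeks (SD, n = 6 each; exact permutation p = 0.00216, adjusted 0.00893). Of the 12 markers 7 were called higher at 26 weeks and 1, Csf3r, lower (1439 and 4689 CPM). Monocyte and macrophage (174 and 617 CPM), B cell (142 and 866 CPM), eosinophil (25.6 and 53.1 CPM) and basophil and mast cell sums (1373 and 2135 CPM) averaged lower at 26 weeks. The T cell sum averaged higher (207 and 72.5 CPM). Adjusted exact permutation p-values of these sums were 0.00893 to 0.0336, and those of the remaining lists 0.0602 or more. Of the eosinophil markers Ear2 was called, and higher. The neutrophil sum at 14 weeks was 167576 ± 24321 CPM (against 26 weeks, exact permutation p = 0.0346, adjusted 0.0602). Between these ages 5 of its markers were called higher at 26 weeks and 4 lower. Markers of other cells also differed between 26 and 14 weeks. The plasma cell sum averaged 373 ± 179 CPM at 26 weeks and 157 ± 18.9 CPM at 14 weeks (adjusted exact permutation p = 0.013). Its 3 tested markers were called higher: Xbp1 (220 and 154 CPM at those ages), Igkc (129 and 2.8 CPM) and Jchain (22.6 and 0.195 CPM). The basophil and mast cell sum, nearly all Hdc, averaged 1373 ± 429 and 2383 ± 342 CPM at those ages (adjusted exact permutation p = 0.00893). Platelet and dendritic cell sums were low but higher at 26 weeks, at 4.61 and 3.01 CPM, against 1.71 and 0.728 CPM at 14 weeks (adjusted exact permutation p = 0.019 and 0.0336). No marker of either list was called there by edgeR. Gp9 averaged 3.27 and 0.613 CPM at those ages, Gp1bb 1.18 and 1.06 CPM, and Batf3 2.32 and 0.456 CPM. The erythroid sum reached 251 CPM in 1 library of 26 weeks, against 2.42 CPM at most at 14 weeks (adjusted exact permutation p = 0.166). The part of these measures in the changes of Cd63 and the other genes was not tested. Cd63 spans 128900989 to 128912822 on chromosome 10.

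Levels at 20 weeks were also set against the mean of 14 and 26 weeks in the same fit. Relative to that mean, 4 of the 9 genes were called higher and 2 lower, against 8.15% of all genes higher and 6.82% lower, and 40.7% of abundant genes in either direction. Ctss (1.35 ± 0.31, edgeR adjusted p = 0.00568), Ctsd (0.76 ± 0.18, adjusted p = 0.00892), Lamp1 (0.51 ± 0.14, adjusted p = 0.0164) and Ctsb (0.48 ± 0.11, adjusted p = 0.00799) were higher at the middle age. Cd63 (-0.64 ± 0.15, adjusted p = 0.00911) and Ctsh (-0.53 ± 0.13, adjusted p = 0.00913) were lower. Of these 6 calls 5 held in each fit without 1 library, while leaving out replicate 6 of 20 weeks ended that of Lamp1 (0.45, adjusted p = 0.0535), as did limma-voom (0.0568). Ctsz missed the threshold (0.54 ± 0.18, adjusted p = 0.051), as did Ctsc and Lamp2 (adjusted p = 0.196 and 0.181). Without replicate 1 of 20 weeks Lamp2 was called (0.44, adjusted p = 0.00983), and without replicate 3 or 5 of 20 weeks or replicate 2 or 3 of 26 weeks so was Ctsz (0.58 to 0.62, adjusted p = 0.0213 to 0.0482). Ctsz was also called with RLE or upper quartile scaling, DESeq2, the stricter filter, the length correction, or markers of other cells left out (adjusted p = 0.0175 to 0.0462).

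The genes were also compared with each other over the 18 libraries, as a description. The libraries share ages and scaling, so r is given over all of them and after subtracting the mean log2 CPM of each age. Ctsb and Lamp1 had r = 0.91 over all libraries and 0.84 after the age means were subtracted. For Ctsb with Ctsd, Ctsd with Lamp1, and Ctsc with Lamp2 the pairs of values were 0.82 and 0.72, 0.84 and 0.74, and 0.85 and 0.78. Ctss was closest to Ctsz over all libraries (0.76, and 0.71 after subtraction) and to Ctsd after subtraction (0.72, and 0.60 over all libraries). It had r = -0.02 with Lamp2 and -0.05 with Cd63 over all libraries. Cd63 and Ctsh had 0.79 and 0.64 with each other, and Cd63 had negative values with the other 7 genes, down to -0.78 with Ctsc.

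For each gene, 4225 others whose log2 CPM averaged 4 or more were ranked by r over the same 18 libraries, and the 2 nearest are given. For Ctss they were Il1b, which encodes interleukin 1 beta (0.95), and Clec4n, the gene of the C-type lectin Dectin-2 (0.94). Il1b averaged 2574 ± 836 CPM at 20 weeks and 638 ± 333 CPM at 14 weeks, and Clec4n 146 ± 32.7 and 8.97 ± 5.56 CPM at those ages (SD, n = 6 each). For Cd63 they were the proteasome subunit gene Psma2 (0.98) and the cytochrome oxidase subunit gene Cox5a (0.97), both called higher at 26 than at 20 weeks by edgeR (1.07 ± 0.18 and 1.57 ± 0.26). Lamp1 was most like Sc5d, a gene of sterol synthesis (0.91), and Unc93b1, whose product carries Toll-like receptors to endosomes (0.91). Unc93b1 averaged 652 ± 111 CPM at 20 weeks and 316 ± 59.8 CPM at 14 weeks and was called (1.05 ± 0.21), while Sc5d was not called between any ages.

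Ctsb was most like Ifngr1, a chain of the interferon gamma receptor, and Rnf149 (0.92 each), both called higher at 20 than at 14 weeks (1.08 ± 0.22 and 1.06 ± 0.23). Ctsd was most like Abi3 (0.95) and Suds3 (0.93), and Ctsh like the inhibitory lectin receptor gene Clec12a (0.95) and Pxmp4 (0.94). Clec12a and Pxmp4 were, like Ctsh, called higher at 26 than at 20 weeks (1.05 ± 0.18 and 1.17 ± 0.22 by edgeR). For Ctsz the ranking gave Haus8 (0.89) and Spi1, which encodes the myeloid transcription factor PU.1 (0.87), with no call between any ages for either. Ctsc was nearest to the actin-capping gene Capza2 (0.90) and Slc35a5 (0.89), and Lamp2 to the lamin B receptor gene Lbr (0.93) and Tmem123 (0.92). Lbr and Tmem123 were called lower at 26 than at 20 weeks (-0.96 ± 0.20 and -1.03 ± 0.21).

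Lists of other lysosomal genes were read from the same fit, by counts and medians. Beside the counts below, 10.2% of all genes tested were called at 20 against 14 weeks. The share was 11.0% at 26 against 14 weeks and 16.0% at 26 against 20 weeks. Among abundant genes it was 30.2%, 31.3% and 42.4% in these 3 comparisons. Whether any list differed from these shares was not tested. Of 10 tested genes among the other cathepsins and lysosomal peptidases, 1 was called higher and 1 lower at 20 than at 14 weeks, with a median log2 change of 0.33, against -0.02 over all genes tested. The median of the 9 genes described above was 0.53. Ctsa, which encodes a carboxypeptidase that also protects other lysosomal enzymes, averaged 764 ± 203 CPM at 20 weeks and 248 ± 110 CPM at 14 weeks (1.62 ± 0.32, edgeR adjusted p = 0.00337). Its change between 26 and 20 weeks was -1.29 ± 0.32 (edgeR adjusted p = 0.00916). Ctse, an endosomal aspartic protease gene, averaged 395 ± 45.5 CPM at 20 weeks, against 739 ± 81.5 CPM at 14 weeks (-0.90 ± 0.12), and 452 ± 59 CPM at 26 weeks, which was called lower than at 14 weeks as well (-0.71 ± 0.12). Ctsl and Lgmn, 2 further lysosomal proteases, averaged 9.59 and 9.40 CPM at 20 weeks, against 2.55 and 3.32 CPM at 14 weeks, and were not called (edgeR adjusted p = 0.101 and 0.483).

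Among 36 acid hydrolases and their activators 3 were called higher and 2 lower at 20 than at 14 weeks (median 0.28), and 3 higher and 8 lower at 26 than at 20 weeks (median -0.28, against 0.05 over all genes). Gm2a, the activator of ganglioside breakdown, averaged 1612 ± 504 CPM at 20 weeks and 288 ± 130 CPM at 14 weeks (2.48 ± 0.39, edgeR adjusted p = 0.000732). Ppt1, a palmitoyl-protein thioesterase gene, rose by 1.50 ± 0.23 and Galns, a sulfatase gene, fell by 1.13 ± 0.17. At 26 against 20 weeks the changes were -1.70 ± 0.38 for Gm2a, -1.12 ± 0.22 for Ppt1, -0.77 ± 0.13 for the mannosidase gene Man2b1 and 0.90 ± 0.17 for Galns, all called.

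Of 24 tested genes of other lysosomal membrane proteins and tetraspanins, 6 were called higher and 1 lower at 20 than at 14 weeks (median 0.33), 4 higher and 0 lower at 26 than at 14 weeks (median 0.24), and 2 higher and 4 lower at 26 than at 20 weeks (median -0.17). Like Cd63, the tetraspanin genes Cd9 and Cd81 were called higher at 26 than at 20 weeks (0.58 ± 0.13 and 1.03 ± 0.23). Cd81 averaged 172 ± 43.6 CPM at 26 weeks, 84.3 ± 32.6 CPM at 20 weeks and 69.5 ± 15.4 CPM at 14 weeks. Another tetraspanin gene, Cd82, was called higher at 20 than at 14 weeks (0.90 ± 0.18) and lower at 26 than at 20 weeks (-0.75 ± 0.18). Slc11a1, which encodes the phagosomal metal transporter NRAMP1, was called only between 26 and 20 weeks by edgeR (-1.11 ± 0.18).

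**Figure D4:**
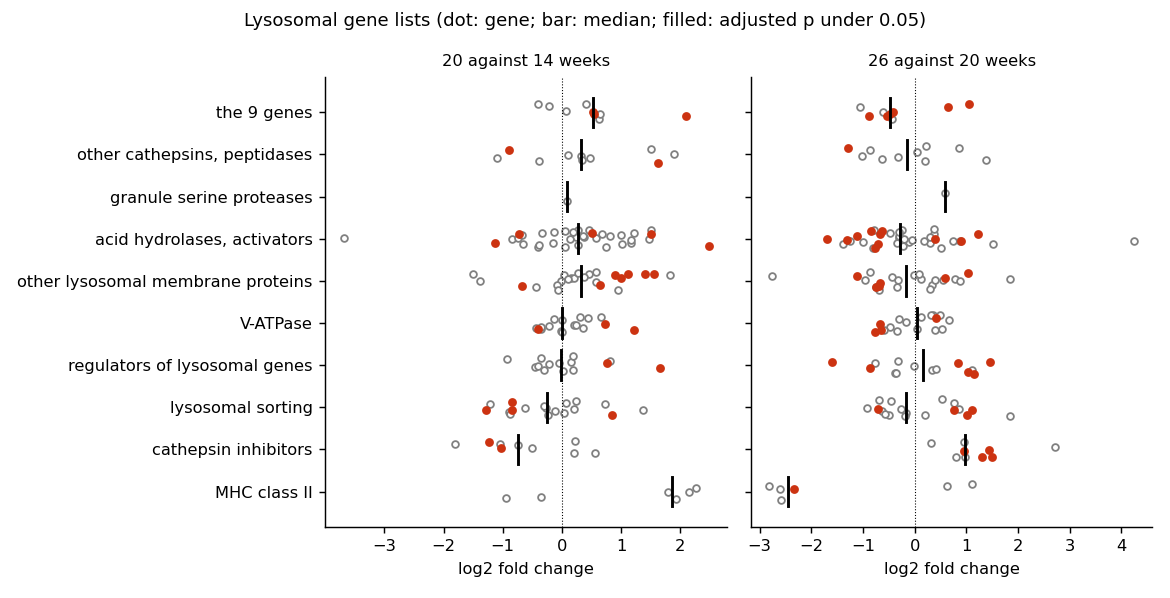
Fitted log2 fold changes (horizontal axes) of the tested genes of each list (rows) in 20 against 14 weeks and 26 against 20 weeks. Each dot is a gene, black bars are medians and filled dots had an adjusted p under 0.05. The median of the 9 genes was 0.53 at 20 against 14 weeks and -0.48 at 26 against 20 weeks, and that of the cathepsin inhibitors was -0.74 and 0.98.

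The proton pump (V-ATPase) list was centred on 0, with medians of 0.00, 0.01 and 0.04 in 20 against 14, 26 against 14 and 26 against 20 weeks. Of its 17 tested genes 2 were called higher and 1 lower at 20 than at 14 weeks, 3 and 0 at 26 than at 14 weeks, and 1 and 3 at 26 than at 20 weeks. The accessory subunit genes Atp6ap1 and Atp6ap2 were higher at 20 than at 14 weeks (0.73 ± 0.16 and 1.21 ± 0.20). Atp6v0e and Atp6v1f were called between 26 and 14 weeks (1.18 ± 0.22 and 0.90 ± 0.23, the second lost with the length correction, adjusted p = 0.291). Of 14 tested regulators 2 were called at 20 against 14 weeks, both higher, and at 26 against 20 weeks 4 were higher and 2 lower. Tfeb averaged 171 ± 33.3 CPM at 20 weeks and 101 ± 21.9 CPM at 14 weeks (0.76 ± 0.18, edgeR adjusted p = 0.0111), and Flcn, which encodes the Rag GTPase regulator folliculin, 125 ± 53.8 and 39.5 ± 14.8 CPM (1.66 ± 0.28, adjusted p = 0.00102). Both were lower at 26 than at 20 weeks (-0.86 ± 0.18 and -1.60 ± 0.28). Of the relatives of Tfeb, Tfe3 averaged 125 ± 16.1, 91.5 ± 20.2 and 69.6 ± 15.4 CPM at 14, 20 and 26 weeks. Tfe3 was not called at 20 against 14 weeks (-0.45 ± 0.17, edgeR adjusted p = 0.0979). It was called lower at 26 than at 14 weeks (-0.85 ± 0.17, edgeR adjusted p = 0.00456). Mitf was not called between any ages, and Tfec had too few counts to be tested. Lamtor4 and Lamtor5, subunits of the Ragulator complex on lysosomes, were called higher at 26 than at 20 weeks (1.45 ± 0.30 and 1.04 ± 0.26). The length correction ended the call of Lamtor5 (adjusted p = 0.107).

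In the list of lysosomal sorting, 1 of 18 tested genes was called higher and 3 lower at 20 than at 14 weeks (median -0.26). The 3 were Sort1, the sortilin gene (-0.84 ± 0.19), and the AP-3 adaptor subunit genes Ap3b1 (-1.28 ± 0.28) and Ap3m1 (-0.85 ± 0.18). At 26 against 20 weeks Ap3m1 and the retromer gene Vps29 were among 3 called higher (1.11 ± 0.18 and 0.76 ± 0.19), with 1 lower. Genes of cathepsin and granule protease inhibitors had a median of -0.74 at 20 against 14 weeks and 0.98 at 26 against 20 weeks. Of 9 tested, 0 were called higher and 2 lower at 20 than at 14 weeks, and 4 higher and 0 lower at 26 than at 20 weeks. Serpinb1a, which inhibits neutrophil serine proteases, averaged 1468 ± 292 CPM at 26 weeks and 543 ± 261 CPM at 20 weeks (1.43 ± 0.26, edgeR adjusted p = 0.00124). Serpinb6a, of the same inhibitor family, was 1 of the 2 called lower at 20 than at 14 weeks (-1.24 ± 0.37), a call that was lost in 12 of the 18 fits without 1 library. Cstb, the stefin B gene, averaged 68.2 ± 34.3 CPM at 26 weeks and 35 ± 6.69 CPM at 20 weeks. That change, 0.96 ± 0.26, was called, but not without replicate 5 of 26 weeks (adjusted p = 0.0501) or with the length correction (0.158). Cst3, the cystatin C gene, was called between 26 and 14 weeks (0.87 ± 0.23), a call that the length correction ended (adjusted p = 0.267). Stefin A genes in this list occur in near-identical copies, and no source used here states how reads shared between copies were counted.

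The MHC class II list, whose invariant chain is a substrate of cathepsin S, had low counts. The median log2 change of its 6 tested genes was 1.86 at 20 against 14 weeks and -2.46 at 26 against 20 weeks, and Cd74 was the only one called in either comparison. H2-DMa (-0.35 and 0.62) and H2-DMb2 (-0.94 and 1.10) had the opposite signs in these comparisons. The fitted changes of H2-Aa, H2-Ab1 and H2-Eb1 had SEs of 1.67 to 2.0, and each had libraries with 0 CPM at every age. Cd74, the invariant chain gene, averaged 80.9 ± 55.8 CPM at 20 weeks and 16.8 ± 29 CPM at 14 weeks (2.27 ± 0.76, edgeR adjusted p = 0.065). It was called lower at 26 than at 20 weeks (16 ± 10.7 CPM at 26 weeks, -2.33 ± 0.76, edgeR adjusted p = 0.0421). That call was lost without replicate 2, 4 or 6 of 20 weeks or replicate 1, 2, 4, 5 or 6 of 26 weeks (adjusted p up to 0.0992).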

How the data were processed

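The deposited table holds raw counts per gene symbol. The submitters' processing notes for the counts the authors deposited name HTSeq 0.6.1, STAR 2.4.2a and Trimmomatic 0.32, the build GRCm38.p4, and the test programs DESeq and DESeq2 (1.12.3), with no order. No source used here gives the annotation, the strand setting or the counting of shared reads. Single-end reads of 100 nt came from Nextera XT libraries without molecular identifiers, per the labels' protocols, so depth limits cover counting error only.

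The main test was that of edgeR 4.0.16 under R 4.3.3 (TMM, filterByExpr by age, robust quasi-likelihood fit, age as the only term). The SE is the log2 change over the square root of F. The test was tried on simulated data. Gene positions and exon lengths are from GENCODE M21, with 98.4% of tested genes matched. The genes and lists were chosen with earlier results of these data known. Named beside the 9 genes are up to 4 genes per list, by smallest p for any change among called genes, and the 2 most similar genes for each. Ctsl, Lgmn, Elane, Prtn3, Ctsg, Prss57, Tfe3, Mitf and Tfec were named after their values were seen. So were the MHC class II genes other than Cd74, and the markers of other cells. Alternatives were RLE and upper quartile scaling, DESeq2 1.42.0, limma-voom (limma 3.58.1), other filters (none, or 10 CPM in 6 libraries), only 2 ages, a replicate block, a loess length correction, marker genes left out, and each library left out. Replicates differed by more than counting error (mean chi-square per gene 26.1 to 182), and p-values measure the spread between these libraries.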

Additional observations from a re-analysis of the deposited data

Results flagged for a closer look

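Lamp2 had 320 CPM in replicate 1 of 20 weeks, against 575 to 717 CPM in the other 5 libraries of that age. Its gap to the nearest of them took 0.643 of the range of the 6 libraries, above Dixon's 95% critical value for a group of 6. This was the only such case among 27 combinations of gene and age, where chance alone gives about 1 in 20. The same library had 7.72 CPM of Ctsc, the lowest of its age, and 291 CPM of Ctsh, the highest of its age.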

How the results depend on the processing

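Between 20 and 14 weeks 3 of the 9 genes were called, and 5 with RLE scaling, upper quartile scaling, DESeq2, the stricter filter or only 2 ages (2 to 5 without 1 library, 5 without replicate 3 of 26 weeks). Between 26 and 14 weeks it was 2, and 1 with the length correction (2 to 3 without 1 library). Between 26 and 20 weeks it was 6, but 3 with no filter or only 2 ages (3 to 7 without 1 library). The 3 that remained without replicate 3, 4 or 6 of 20 weeks or 1, 5 or 6 of 26 weeks were Ctsd, Ctsh and Cd63. For 20 weeks against the mean of the others it was 6 (5 to 7 without 1 library) and for any change 7 (5 to 7). Over all genes 1030 were called between 20 and 14 weeks (1563 with DESeq2, 702 to 1263 without 1 library), 1111 between 26 and 14 weeks (2679 with limma-voom, 1710 with only 2 ages, 652 to 1544 without 1 library, lowest without replicate 1, 2 or 6 of 26 weeks at 652, 733 and 726) and 1617 between 26 and 20 weeks (1141 to 1911 without 1 library). The share of calls that were higher between 26 and 14 weeks was 49.6%, and 62% with upper quartile scaling, under which the median of all genes was 0.14 against 0.04. The length correction turned the uncalled changes of Ctsz and Lamp1 between 26 and 14 weeks to -0.22 and -0.09. The cause of these differences was not tested. With the replicate block 4 of the 9 genes were called between 20 and 14 weeks, and 962, 946 and 1573 genes in the 3 comparisons. Same-numbered libraries correlated at -0.0527 to 0.136 (median 0.00765) in their deviations from age means. Libraries of other numbers correlated at -0.143 to 0.131 (median -0.000305). Of 18 libraries 6 correlated best with their own number. How many would do so by chance was not computed, so that count does not decide about pairing. The main fit did not take the numbers as pairs. Ctsc, at 10 to 381 counts per library, limits what could be detected for it.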
